A study of Homo sapiens with 3 samples.

Results

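The unexposed control array of the series was described on its own, across all 2019 human microRNAs that the array probed. It was 1 of 3 arrays, chosen by its label as the sample exposed to nothing, and the ethanol and acetaldehyde arrays were not compared with it here. The RNA came from a monolayer of MCF12A, a human mammary epithelial cell line that is immortalized but does not form tumours, grown without either agent in medium with horse serum, epidermal growth factor, hydrocortisone, insulin and cholera toxin. The labels give no time in culture for this sample. Total RNA (2 µg) was given a poly(A) tail, tagged and stained with the dye Cy5, and was read by a commercial service on a 1-colour array. There was no second control array, so every value below describes this array, with no test between cultures.

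MicroRNAs are short RNAs that guide Argonaute proteins to messenger RNAs and lower their output. The enzymes Drosha and Dicer cut each one from a hairpin, which yields a 5p and a 3p arm, and usually a single arm is kept in Argonaute. Target choice rests mainly on the seed, bases 2 to 8 of the mature strand, so microRNAs that share a seed are treated as a family. In mammary epithelium, miR-205 is known as a basal and progenitor microRNA, the miR-200 family holds back the mesenchymal state, and let-7 limits growth and stem cell programmes.

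The mature sequences that carry the results are printed 5′ to 3′ from RefSeq (GRCh38.p14), with the seed in capitals. The brightest microRNA on the array, miR-205-5p (chr1:209432166-209432187, plus strand, within the host gene MIR205HG), and the second, miR-21-5p (chr17:59841273-59841294, plus strand, within VMP1), had seeds of their own among the bright members.
miR-205-5p: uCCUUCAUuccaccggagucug
miR-21-5p: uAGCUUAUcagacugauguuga
The let-7 members are shown because the whole family was bright and its sequences differ at few places.
let-7a-5p: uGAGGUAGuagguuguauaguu
let-7c: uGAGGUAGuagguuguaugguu
let-7d-5p: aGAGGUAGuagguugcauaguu
let-7e-5p: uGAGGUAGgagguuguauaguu
let-7f-5p: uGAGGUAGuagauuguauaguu
let-7b-5p: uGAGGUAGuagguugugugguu
let-7g-5p: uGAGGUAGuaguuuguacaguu
let-7i-5p: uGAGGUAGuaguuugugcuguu
miR-98-5p: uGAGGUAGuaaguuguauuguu
Members of the miR-17/92 cluster and its X-linked paralog, and both miR-23 copies, come next. MiR-17-5p with miR-106a-5p, and miR-23b-3p with miR-23a-3p, are near-identical pairs from different loci. MiR-92a-3p is 1 sequence that both clusters encode.
miR-17-5p: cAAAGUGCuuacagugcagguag
miR-106a-5p: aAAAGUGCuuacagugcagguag
miR-20a-5p: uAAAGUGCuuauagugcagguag
miR-92a-3p: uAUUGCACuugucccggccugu
miR-23b-3p: aUCACAUUgccagggauuacc
miR-23a-3p: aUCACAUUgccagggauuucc
Of the miR-200 family, the first 2 below share a seed, and so do the last 2, whose seed differs from it by a single base.
miR-200c-3p: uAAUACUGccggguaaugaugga
miR-200b-3p: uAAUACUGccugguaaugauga
miR-141-3p: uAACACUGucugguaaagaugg
miR-200a-3p: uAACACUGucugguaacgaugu

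Signal is given as net signal, the mean intensity of a probe's 4 spots minus the median of the 1368 empty spots, which was 106. A microRNA was called detected above 146, that is, at a net signal over 40.8 (3 SDs of the empty spots) and with 50% or more of the spots past it. By this rule 775 of the 2019 microRNAs (38.4%) were detected. The error printed with a net signal is the SD over its 4 spots, 2 in each of 2 blocks of the array, and covers printing and reading only. Its median was 6.56% of the signal for the 224 microRNAs at a net signal of 500 or more, and 14.6% for the 551 dimmer detected ones. Probes differ in how strongly they bind, so ranks and shares are ranks and shares of probe signal, not of molecules.

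The signal was spread over many microRNAs, with miR-205-5p clearly the brightest. The 10 brightest held 17.0% of the summed net signal, the 20 brightest 29.3% and the 100 brightest 73.8%, and 44 microRNAs held 50% of it. Over the 4 spot positions, the share of the 10 brightest ran between 17.0% and 17.4%. At the other end, 585 microRNAs had a net signal at or below 0, and the median over all 2019 was 21.7, below the detection level.

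The spots of miR-205-5p, which is known to repress the ZEB factors of the mesenchymal programme, read 20795, 23353, 20819.7 and 21436, a mean net signal of 21601 ± 1205 and 2.46% of the total. All 4 lay above every spot of the next microRNA. MiR-21-5p, widely known as an oncogenic and stress-responsive microRNA, read 16186, 15412, 16105 and 14319, a mean of 15505 ± 864.
Its spots overlapped those of miR-23b-3p (15461 ± 482), which in turn overlapped miR-23a-3p (14953 ± 674), and so did those of miR-23a-3p and let-7a-5p (14773 ± 348). The order of these 4 is therefore not resolved by the spots. The lowest let-7a-5p spot, 14423, lay above the highest spot of miR-92a-3p, 14111, the next in rank. Among neighbours in rank, that gap and the one below miR-205-5p were the only 2 in the top 20. In the other 17 of its 19 neighbouring pairs the spots overlapped. The gap below let-7a-5p held for that pair only, since the highest spot of miR-1273g-3p, ranked 7, was 14592.5.

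From miR-92a-3p (13730.4 ± 369) down to miR-17-5p (9683 ± 399), the remaining 15 of the 20 formed a continuous slope. It held 4 further let-7 members, 3 further members of the miR-17/92 cluster and its paralog (miR-20a-5p, miR-106a-5p and miR-17-5p), and miR-29a-3p (11685 ± 560), whose family is known to repress collagen genes. MiR-574-3p reached 9978 ± 1391. The other 5 were high-numbered entries, a group described further on: miR-1273g-3p (13559 ± 926), miR-3960 (13445 ± 509), miR-6089 (13184 ± 421), miR-3665 (12916 ± 957) and miR-4454 (11040 ± 368).

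**Figure D1:**
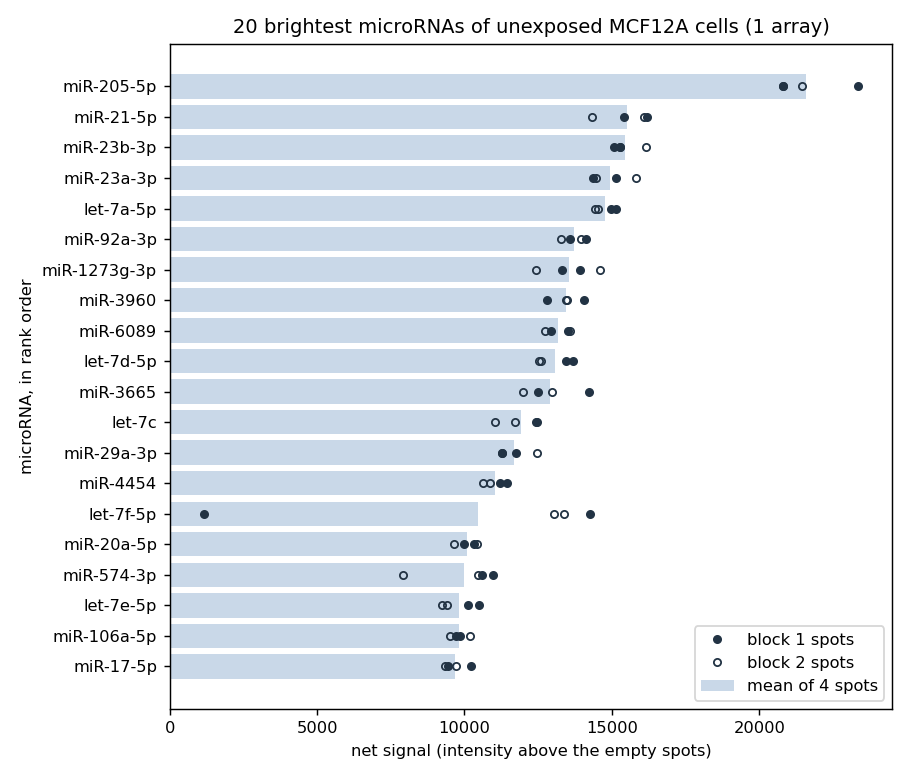
Net signal (intensity above the median of the empty spots, linear axis) of the 20 brightest microRNAs, with bars at the mean of 4 spots, filled points for block 1 and open points for block 2. MiR-205-5p stands alone at 21601, and let-7f-5p has 1 spot at 1160.4 beside 3 spots from 13035 to 14256.

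A dim spot moved the rank of let-7f-5p. Its spots read 1160.4, 14256, 13035 and 13370, so its mean of 10455 ± 6218 ranked 15, whereas without the dim spot it was 13554 ± 631 and ranked 8. MiR-19b-3p of the miR-17/92 cluster (2878) and miR-5100 (2626) each had a dim spot as well, and read 3817 ± 160 and 3445 ± 229 without it. These were the 3 such spots among 275 bright microRNAs, each under 50% of its probe's median.

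Grouped by seed, let-7 led. The 11 microRNAs with the seed GAGGUAG held 8.95% of the signal, and 10 of them were detected. The family share was 7.95%, 9.53%, 9.05% and 9.23% at the 4 spot positions, the lowest being the position of the dim let-7f-5p spot. The 9 members of the established family ran between 14773 for let-7a-5p and 1411 for miR-98-5p, with a median of 9825. The sequences printed above differ from let-7a-5p at 1 position of 22 for let-7c (11912 ± 678), let-7e-5p (9825 ± 594) and let-7f-5p, and at 2 for let-7d-5p (13068 ± 589), let-7b-5p (7303 ± 271), let-7g-5p (5161 ± 268) and miR-98-5p. Members this close may each bind partly to the other's probe, which was not tested. MiR-4458 shares the seed but differs at 10 of 19 positions, and read 56.6.

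The AAAGUGC family came second with 4.58%, from 6 detected of 8 microRNAs. These belong to the miR-17/92 cluster and its paralogs, known to promote proliferation and to be induced by MYC. MiR-17-5p and miR-106a-5p differ at 1 position of 23 and read 9683 and 9813, a ratio of 0.987, within their spot error. MiR-20a-5p read 10099 ± 360 and miR-20b-5p 6064 ± 347, whereas miR-93-5p (2632 ± 94.3) and miR-106b-5p (1889 ± 82.8), from the third cluster, were the dimmest of the detected members. Of the 13 listed products of the miR-17/92 cluster and its paralogs, other seeds included, 12 were detected (92.3%). The share over all microRNAs was 38.4%, and the median net signal of the 13 was 2878.
The UCACAUU family held 3.95%, mostly from miR-23b-3p and miR-23a-3p, which differ at 1 of 21 positions. MiR-23c, also 1 position from miR-23b-3p, read 4161 ± 67.5. Next was AUUGCAC with 2.91%, where miR-92a-3p, miR-92b-3p (8711) and miR-25-3p (3045) were detected, and miR-32-5p, miR-363-3p and miR-367-3p were not.

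Some families rested on a single microRNA and others were shared out. MiR-205-5p was the only probe with its seed, and miR-21-5p gave 98.8% of its family's signal, with miR-590-5p at 186. In the miR-30 family, known to favour epithelial and differentiated states, the 5 members ran between 6488 ± 53.7 for miR-30b-5p and 1515 ± 68.2 for miR-30e-5p, with miR-30c-5p at 5015 ± 226, and the family held 2.37%. In the miR-15/16 family, known to restrain the cell cycle, miR-16-5p (8714 ± 420.04) and miR-15b-5p (6721 ± 208) led, and miR-15a-5p (1948), miR-195-5p (715), miR-424-5p (503) and miR-497-5p (111) followed. MiR-29a-3p read 2.89 times miR-29c-3p (4044 ± 586), although they differ at 1 of 22 positions. The 10 leading seeds together held 33.1% of the signal with 48 of the 2019 microRNAs.

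**Figure D2:**
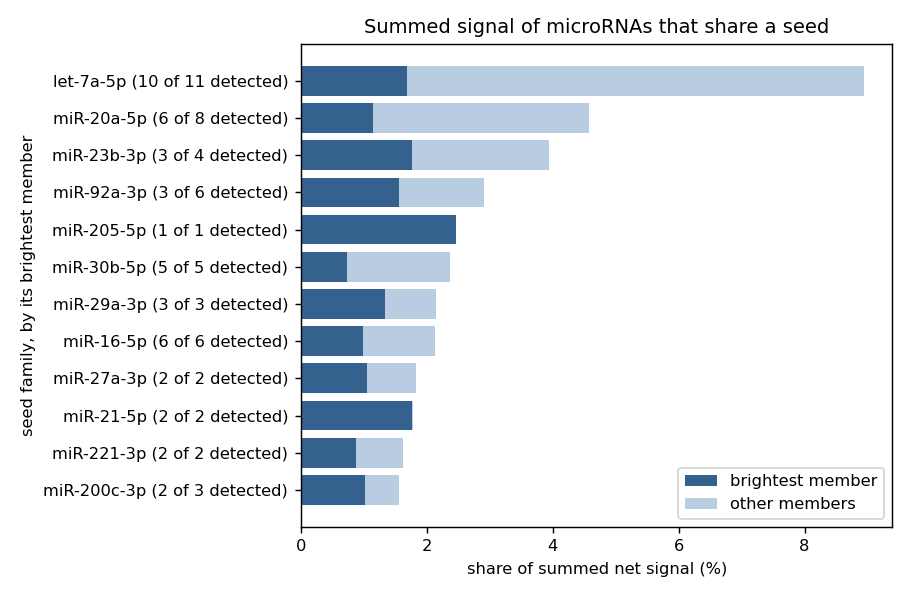
Share of the summed net signal (%) of the 12 leading seed families, named by their brightest member, with the brightest member in dark blue, all others in light blue and the detected count in brackets. The let-7 family reaches 8.95%, of which let-7a-5p is 18.8%, whereas miR-205-5p and miR-21-5p carry their families almost alone.

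Hairpins that lie close together are usually cut from the same transcript. In RefSeq (GRCh38.p14), with hairpins on a strand joined where they lay within 10 kb, 90 clusters carried a probe and 69 a detected one. A gene listed there by its mature strands alone was placed by those. A microRNA made from several loci was counted at each, since its probe does not tell the loci apart. The brightest cluster was MIRLET7A1, MIRLET7F1 and MIRLET7D at chr9:94175957-94178920 (plus strand), with 4.52% of the signal and 6 of 6 probes detected. MIR17 to MIR92A1 at chr13:91350605-91351391 (plus strand, within MIR17HG) held 4.33%, with 9 of 12 detected. Within it, miR-92a-3p, miR-20a-5p and miR-17-5p were bright, and miR-19a-3p (825 ± 17.8) and miR-18a-5p (453 ± 47.2) were far dimmer although they are cut from the same transcript.

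Of the miR-23/27/24 clusters, that on chr19:13836287-13836659 (minus strand) held 3.85% and that on chr9:95085208-95086088 (plus strand, within AOPEP) 3.62%. Their shared product miR-24-3p read 9382 ± 359, miR-27a-3p 9203 ± 129.5 and miR-27b-3p 6872 ± 206. The X-linked paralog of the miR-17/92 cluster, chrX:134169378-134170278 (minus strand), held 3.74% with 5 of 11 probes detected. Its bright products were miR-92a-3p and miR-19b-3p, which the chromosome 13 cluster makes too, and miR-106a-5p and miR-20b-5p, which nearly match miR-17-5p and miR-20a-5p. MiR-18b-5p read 281 ± 27.3, dim like miR-18a-5p of chromosome 13, and miR-363-3p was below detection at -17.8. Which locus a shared signal came from was not tested.
The 42-hairpin imprinted cluster at chr14:101022066-101066801 (plus strand) had 14 of 62 probes detected (22.6%, against 38.4% of all microRNAs) and held 0.516%. GC content, with which detection rose on this array, was not matched in that comparison.

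Of the 18 listed epithelial markers, 14 were detected (77.8%, against 38.4% of all microRNAs). The lists were chosen with earlier results of these data known, so these counts do not test the epithelial label. Levels of different probes do not order basal against luminal expression, so each list is given by itself. In the basal and stratified epithelial list, 6 of 7 microRNAs were detected (85.7%, against 38.4% of all microRNAs), with a median net signal of 5764, against 21.7 over all microRNAs. Besides miR-205-5p, these were miR-221-3p (7734 ± 399.8) and miR-222-3p (6435 ± 251), an X-linked pair known to be high in basal-like breast cells and to repress the oestrogen receptor and the cell-cycle inhibitor p27, and miR-203a (5764 ± 232), which limits the basal transcription factor p63 in skin. MiR-31-5p (2420.3 ± 112) and miR-224-5p (1693 ± 84.3) were also detected, and miR-184 (-5.47) was not. In the luminal and glandular list, 4 of 6 were detected (66.7%), with a median of 259.8, so members of this list too were detected more often than all microRNAs. Its brightest members were miR-342-3p (1481 ± 108) and miR-148a-3p (1401 ± 14.5), and miR-375 (8.46 ± 8.38), known as high in oestrogen receptor positive luminal cells, and miR-190b (-24.6) were below detection.

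The miR-200 family split by member. MiR-200c-3p read 8821 to 9255 over its spots (mean 8981 ± 204), miR-200b-3p 3974 to 5342 (4704 ± 563) and miR-141-3p 1635 to 1842 (1732 ± 93.8), whereas miR-200a-3p read 45.3 to 62.4 (55.5 ± 7.89) and miR-429 was not detected (-12.3). MiR-200c and miR-141 are neighbours at chr12:6963699-6964191. MiR-200b (mature strand at chr1:1167160-1167181) and miR-200a (chr1:1167916-1167937) lie in MIR200BHG. MiR-141-3p read 31.2 times miR-200a-3p, which differs from it at 2 of 22 positions, and miR-200b-3p, which differs from miR-200c-3p at 2 of 22, read 0.524 times its level. MiR-200b-3p was thus bright beside a dim neighbour and a bright near-copy. How much of its signal came from miR-200c was not tested.

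Markers of other cell types were mostly at the background. Of 73 listed, 13 were detected (17.8%, against 38.4% of all microRNAs). Many of these markers have a GC content between 30% and 50%. Of all microRNAs, 15.9% between 30% and 40% and 27.1% between 40% and 50% were detected. The part of GC content in the marker count was not tested. All 73 together held 0.533% of the signal. The 18 epithelial ones, luminal list included, held 7.36%, with miR-205-5p alone at 2.46%. These are shares of probe signal, not of molecules. No blood cell marker (0 of 7, the highest being miR-486-5p at 29.99 and miR-150-5p at 25.6), pluripotent cell marker (0 of 8, the highest being miR-302d-3p at 10.1 and miR-371a-3p at 6.23), placental C19MC member (0 of 10, the highest being miR-521 at 79.8 with a single bright spot and miR-512-3p at 36.4) or liver marker (miR-122-5p, -0.966) was detected. In the mesenchymal and smooth muscle list, miR-143-3p (9.18), miR-145-5p (-4.77) and miR-199a-3p (-8.71), its defining members, were below detection, and miR-214-3p (261 ± 13.0) was the only 1 of 7 detected. Of the endothelial list, miR-126-3p (342 ± 22.5) was detected and miR-126-5p (-1.50) was not. MiR-206 of skeletal muscle read 244 ± 12.01, while the other muscle markers miR-1 (-28.7) and miR-133a (12.7) were below detection. Of the neural list, miR-132-3p (590.4 ± 19.9) and miR-128 (500.2 ± 50.7), which many cell types make, were detected, and miR-124-3p (17.8) and miR-9-5p (-10.9) were not.
Of 24 listed members of the imprinted DLK1-DIO3 region, 8 were detected (33.3%, near the 38.4% of all microRNAs). They made up 8 of the 13 detected markers of other cell types. Within the list, miR-494 (1782 ± 222) was far above the next, miR-377-3p (182.3 ± 5.68). The list leaves out miR-485-3p (746 ± 42.5) and miR-654-3p (235 ± 4.82) of the same region.

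**Figure D3:**
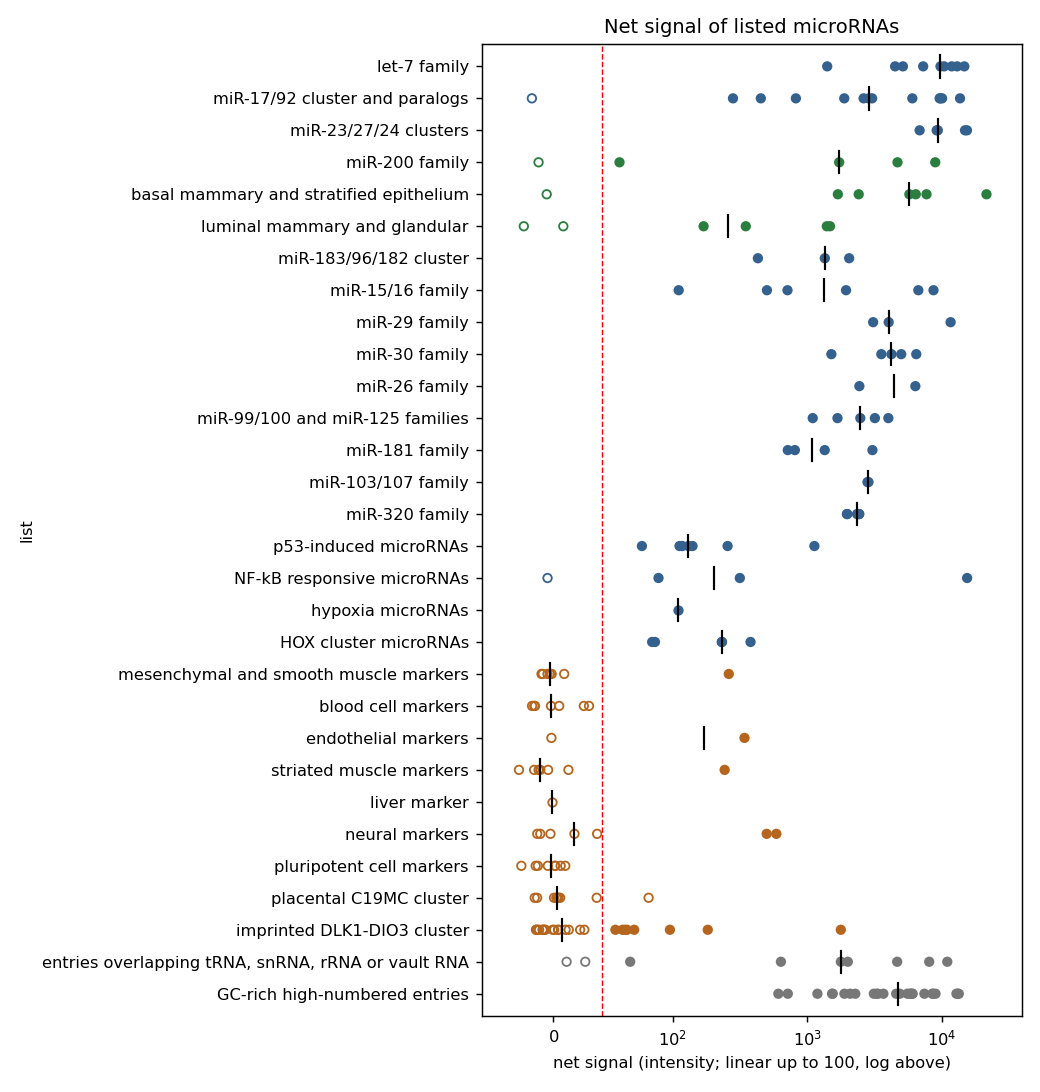
Net signal of each member of 30 lists (axis linear up to 100, logarithmic above), with filled points for detected microRNAs, open points for those not detected, black ticks at list medians and the red dashed line at the detection level of 40.8. Colours mark epithelial lists (green), other families and programmes (blue), other cell types (orange) and entries overlapping other RNA or rich in G and C (grey). The open point right of the line is miR-521, with 1 bright spot of 4.

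Growth and stress microRNAs ranged widely. All 7 probes of the list induced by the tumour suppressor p53 were detected, against 38.4% of all microRNAs, but most were dim, with a median of 131. MiR-34a-5p, the best known of them, read 1133 ± 74.4, and the next in the list was miR-34b-3p at 256 ± 23.9. The list holds miR-34c-5p (118 ± 13.5) but leaves out miR-34c-3p, which read 1229 ± 76.9. Of the NF-kB responsive list, miR-21-5p was bright, miR-155-5p (316 ± 20.1) and miR-146b-5p (88.1 ± 9.12) were dim, and miR-146a-5p (-4.76), an inducible brake on that pathway, was below detection. The hypoxia microRNA miR-210 read 109 ± 14.5. In the HOX clusters, where 5 of 5 were likewise detected, miR-196a-5p read 379 ± 42.3 and miR-10a-5p 233 ± 155, with its lowest spot at 6.63.

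The further listed families and clusters below were detected in full, against 38.4% of all microRNAs. Their lists were chosen with earlier results of these data known, so the counts are description only. MiR-26a-5p read 6386 ± 156 and miR-26b-5p 2449 ± 95.4. MiR-125a-5p (4022 ± 151) and miR-125b-5p (3193 ± 62.3) led the miR-99/100 and miR-125 list, in which 5 of 5 were detected, and miR-181a-5p (3061 ± 130.1) and miR-181b-5p (1352 ± 113) led the miR-181 family with 4 of 4. MiR-107 (2861 ± 105) and miR-103a-3p (2814 ± 123), known regulators of insulin sensitivity and of Dicer, differ at 1 of 23 positions and did not separate. The 5 members of the miR-320 family, which do not need Drosha, also lay close together, from 1979 to 2443, with miR-320a (2443 ± 179) and miR-320c (2434 ± 64.7) highest. In the cluster of miR-183, miR-96 and miR-182, known from sensory cells and raised in many carcinomas, miR-182-5p (2054 ± 62.8) and miR-183-5p (1355 ± 28.5) were above miR-96-5p (430.5 ± 67.2).

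The signal of the 2 arms was one-sided in nearly all bright hairpins. Each arm has its own probe, so these are ratios of probe signal, and probe binding was not separated from arm use. Both arms were probed for 543 hairpins, and 299 had a detected arm. The 5p arm was at least 2-fold above the 3p arm in 122 of them (40.8%), the 3p arm was at least 2-fold above in 97 (32.4%), and 80 lay within 2-fold. An arm below detection was set at the detection level, so a fold against it is a lower bound and dim hairpins tend to fall within 2-fold. Among the 110 hairpins whose brighter arm reached 500, the 5p arm led in 69 (62.7%), the 3p arm in 37 (33.6%), and 4 lay within 2-fold. In 90 of these 110 the arms differed at least 10-fold.

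Among the hairpins with a large 5p excess, most of the 3p arms were below detection, so their ratios are lower bounds that follow the brighter arm and set no order among them. For miR-21 the 5p arm read 15505 and the 3p arm (17.9) was below detection, a ratio of at least 379.7. It was at least 241 for let-7e and 240.3 for miR-106a, at least 167 for miR-4668, and at least 159 for miR-30b. It was at least 148 for miR-20b, 126 for let-7g and 111 for let-7i.
Both arms could be measured for miR-205 and miR-17. For miR-205 the 5p arm read 21601, against 184 for the 3p arm, a log2 ratio of 6.87 ± 0.12, and for miR-17 the values were 9683 and 64.8, a log2 ratio of 7.22 ± 0.39 (SD over 4 spots). These dimmer arms are shown because they were nonetheless above the detection level.
miR-205-3p: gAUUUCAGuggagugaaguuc
miR-17-3p: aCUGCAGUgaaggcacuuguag

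Large 3p excesses were mostly lower bounds too. For miR-23b the 5p arm (23.3) was below detection beside a 3p arm of 15461, a ratio of at least 379 in favour of 3p. It was at least 332 for miR-1273g, 225 for miR-27a, 219.9 for miR-200c and 213 for miR-92b. It was at least 189 for miR-221, 187 for miR-3613, 168 for miR-27b and 158 for miR-222. The bright arms of miR-3613 and, among the 5p excesses above, miR-4668 carry a run of 10 A. The part of that run in their signal was not tested. For miR-23a both arms were measured, with 74.6 for the 5p arm, against 14953 for the 3p arm, a log2 ratio of 5p over 3p of -7.65 ± 0.23. Thus the members of both miR-23/27 clusters and of the miR-221/222 cluster leaned to 3p, and the listed miR-17, miR-20b and let-7 hairpins to 5p.

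Few bright hairpins had arms of similar signal. Closest to equal were miR-4701 (541 for 5p and 479 for 3p, log2 ratio 0.17 ± 0.09), miR-197 (442 and 580.4, -0.39 ± 0.05) and miR-335 (575 and 765, -0.41 ± 0.12). MiR-4800 read 504 for 5p and 334 for 3p, and miR-3607 read 1546 and 755. Among the brightest hairpins, miR-574 came nearest, with 4193 for 5p and 9978 for 3p (-1.25 ± 0.19). It was picked after its values were seen.
Argonaute is known to favour strands that start with U or A. In the 106 bright hairpins with a leading arm, that arm started with U in 48 (45.3%), against 25 (23.6%) for the other arm, and with C in 16, against 39. A came first in 29 leading arms, against 31 of the others.

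**Figure D4:**
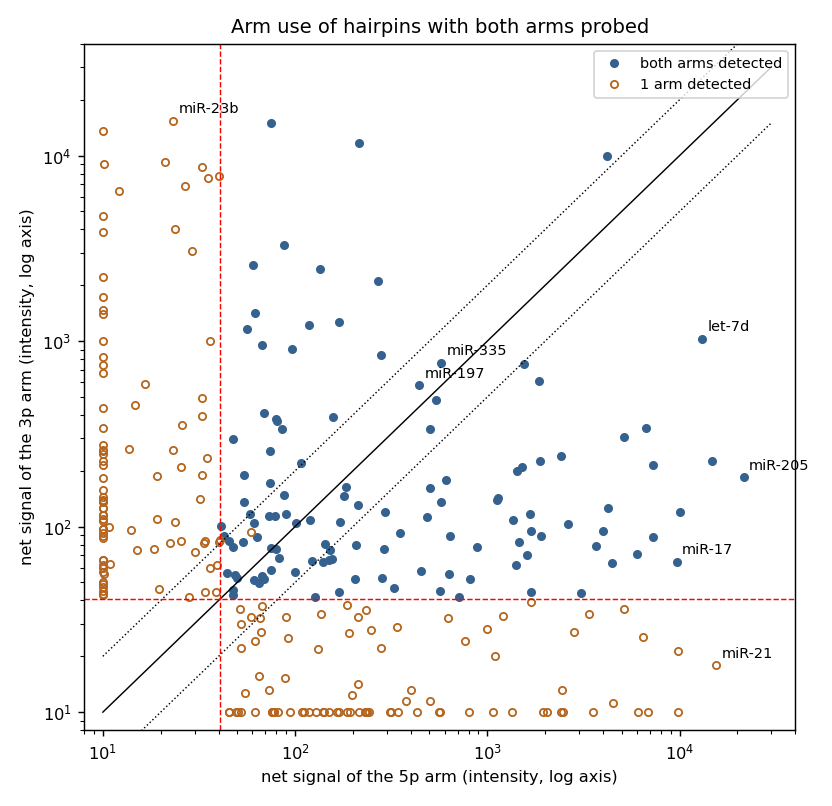
Net signal of the 5p arm (x axis) and the 3p arm (y axis) of the 299 hairpins with a detected arm, both axes logarithmic, with values under 10 drawn at 10. Filled points have both arms detected and open points a single arm. Dashed red lines mark the detection level of 40.8, and the solid and dotted lines mark equality and 2-fold. Bright hairpins lie along the axes, as miR-21 and miR-23b do, and few lie near the diagonal.

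Detection followed the GC content of the microRNA sequence. Of 77 microRNAs under 30% GC, 5 were detected (6.49%), and of 339 between 30% and 40%, 54 were (15.9%). The share was 27.1% between 40% and 50%, 38.8% between 50% and 60%, 61.0% between 60% and 70% and 81.1% between 70% and 80%. All 58 at 80% or more were detected, with a median net signal of 1443, and they held 17.95% of the signal. Across all 2019 microRNAs, Spearman's rho of GC content with net signal was 0.58, and across the 775 detected ones it was -0.11. All points come from the same array, and probe binding strength and base composition go together, so their part in these values was not tested.

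**Figure D5:**
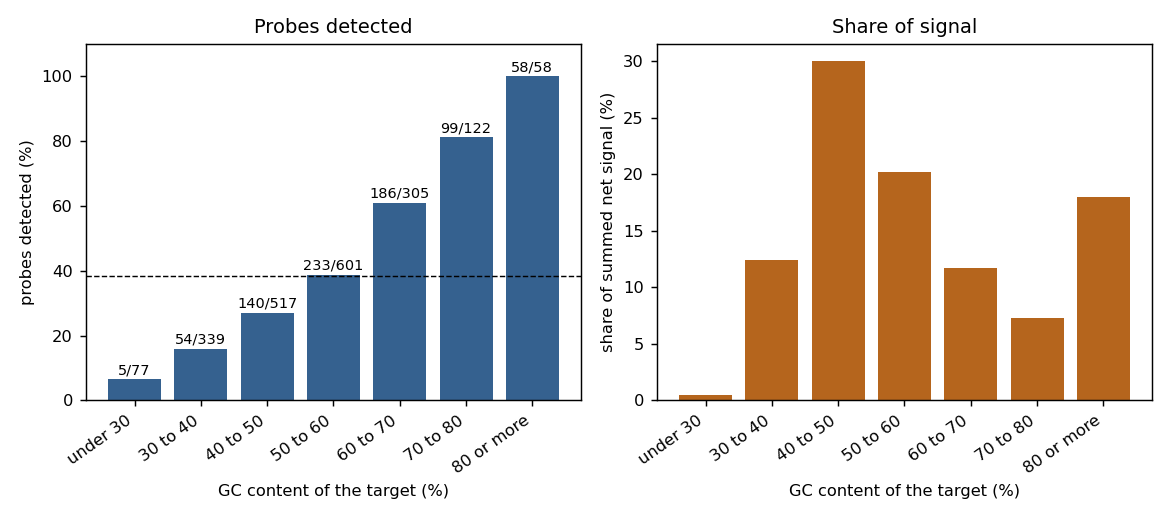
Left, percent of microRNAs detected in classes of GC content, with counts above the bars and the dashed line at 38.4% for all microRNAs. Right, share of the summed net signal (%) held by each class. Detection runs between 6.49% under 30% GC and 100% at 80% GC or more, whereas the signal is largest in the class from 40% to 50%.

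High-numbered entries, those with a microRNA number of 1000 or more, were detected as often as the lower-numbered ones: 449 of 1168 (38.4%), against 326 of 851 (38.3%). At 60% GC or more, 273 of 383 high-numbered entries were detected (71.3%), and below 60%, 176 of 785 (22.4%). Among lower-numbered microRNAs, 70 of 102 at 60% GC or more were detected (68.6%), and 256 of 749 below 60% (34.2%), and all those below 60% held 53.1% of the signal.
The 50 brightest microRNAs thus held 2 unlike sets. The 30 with lower numbers started with U in 19 cases (63.3%), had a median GC content of 45.5% and a median length of 22. The 20 with high numbers started with U in 1 case and with G in 10, with a median GC content of 82.8% and a median length of 19. All microRNAs started with U in 35.2%.

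Some high-numbered entries are known to overlap other RNAs. In the list overlapping tRNA, snRNA, rRNA or vault RNA, 7 of the 9 probed (of 15 listed) were detected, against 38.4% of all microRNAs, and held 3.23% of the signal. MiR-3687 (11.2) and miR-1291 (26.8) were below detection and miR-3648 (64.4) was dim. The list was led by miR-4454 (11040 ± 368) and miR-1260b (8099 ± 832), both listed for their likeness to tRNA, and by miR-1246 (4678 ± 409), which matches the U2 small nuclear RNA. Of the list of GC-rich entries, all high-numbered except miR-638, miR-663a and miR-762, 26 of 26 were detected, against 38.4% of all microRNAs. Their net signals ran between 611 and 13445 and held 15.7% of the total. By GC content alone, 81.1% of microRNAs between 70% and 80% and all 58 at 80% or more were detected. The list was chosen with earlier results of these data known. Bright examples beside those in the top 20 were miR-6087 (9019.8 ± 531), miR-4516 (8642 ± 525) and miR-6090 (8544 ± 306). MiR-4284, in neither list, read 9192 ± 186, and miR-1273g-3p of the top 20 was in neither list as well. Examples are shown for their length and composition.
miR-6089: gGAGGCCGggguggggcggggcgg
miR-3665: aGCAGGUGcggggcggcg
miR-4454: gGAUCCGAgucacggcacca
miR-1246: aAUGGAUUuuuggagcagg
How much of these signals came from microRNAs and how much from other RNA in the total RNA sample was not tested. Without the 35 probes of both lists, miR-205-5p was still the brightest, and the 10 brightest held 20.6% of the remaining signal.

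A run of 6 or more A was present in 4 microRNAs, of which 3 were detected. The brightest were miR-3613-3p (7622 ± 626, chr13:49996426-49996449, minus strand, within DLEU2) and miR-4668-5p (6822 ± 520.1, chr9:111932100-111932122, plus strand, within UGCG), here with the A run of 10 in capitals. The RNA was poly(A) tailed before staining, and any part of the tail or tag in these signals was not tested.
miR-3613-3p: acAAAAAAAAAAgcccaacccuuc
miR-4668-5p: agggAAAAAAAAAAggauuuguc
The other 2 were miR-3148 (606 ± 72.7) and miR-3128, which was below detection at -17.7.

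At the detection level, miR-4523 (41.2), miR-4731-5p (41.2) and let-7a-2-3p (41.05) lay just inside. The brightest ones left outside had uneven spots: miR-521 (79.8 ± 176), miR-4676-5p (58.8 ± 45.2) and miR-648 (54.4 ± 97.95).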

How the data were processed

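MicroRNAs were measured on 1 array of unexposed MCF12A cells (n = 1), with 2019 microRNA probes of 4 spots each. The deposited per-array file held the median intensity of each spot, and per the file headers it had no background column. No label or header names the scanner, image software or upstream steps. A series-wide table deposited beside it held 1 processed intensity per probe, and was used as an alternative. Its control column had a median of 26.9, and over 224 bright probes its median ratio to net signal was 0.847, so its scale is unknown.

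Net signal, detection, ranks, shares and arm ratios were computed in Python 3.11.15 with NumPy 2.4.6, pandas 2.3.3 and SciPy 1.17.1, and figures with matplotlib 3.10.9. Negative net signals counted as 0 in sums. The normexp alternative (offset 50) used limma 3.58.1 under R 4.3.3. With 1 array there is no test, p-value or replicate SD, and the number of arrays limits the precision. The scripts were tested on simulated data.

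Alternatives covered the spot summary, dark spots, each block, the background, the detection level, the sum and the arm criteria. Of the probes, 1784 matched a RefSeq mature microRNA by identical sequence and 1795 by sequence or name. The 224 with no match, miR-1273g-3p among them, held 11.9% of the summed net signal. Names follow the array design.

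The text names the 20 brightest microRNAs, the 2 brightest of each list, the 10 largest 5p and 3p excesses or bounds and the 5 closest to equal, the 10 brightest high-numbered entries, those next to the detection level and members of a shared seed. Others were named after their values were seen, mainly to fill out a list or cluster. The members and lists were chosen with earlier results of these data known.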

Additional observations from a re-analysis of the deposited data

How the results depend on the processing

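MiR-205-5p was the brightest under all 9 settings that rank probes, and 19 or 20 of the 20 brightest were shared with the main ranking. The share of the 10 brightest, 17.0% in the main analysis, was 17.2% with block 2 spots alone, 14.3% with normexp, 13.9% with no background subtraction, 18.2% in the deposited series table, 17.2% with detected microRNAs alone in the sum and 20.6% without the entries overlapping other RNA or rich in G and C. The count of hairpins with 3p at least 2-fold above, 97, was 62 with normexp, 61 with no background subtraction, 58 at a fold of 4 and 37 where the brighter arm reached 500. For 5p, 122, it was 69 where the brighter arm reached 500. The last of these settings considers fewer hairpins, and leaving the background of 106 in both arms, or adding an offset of 50, compresses their ratio. Detected microRNAs numbered 603 at 5 SDs, 906 at 2 SDs and 675 where all spots had to pass, with 52 to 58 of the 58 at 80% GC or more detected under the spot and level alternatives. Without its dark spot, let-7f-5p read 13554 in place of 10455, miR-19b-3p 3817 in place of 2878 and miR-5100 3445 in place of 2626. The order of close neighbours in the ranking is limited by spot error. No paired analysis was possible because there is 1 array in the group described and no comparison was made between groups.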

Other observations

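Several bright microRNAs outside the lists, picked after their values were seen, stand out by arm or position. MiR-3591-3p read 3861 ± 231, and RefSeq places MIR3591 over MIR122 on the opposite strand, so that the 2 mature strands overlap, whereas the liver microRNA miR-122-5p was at -0.966 and miR-122-3p at 10.9. MiR-6510-5p read 7316 with its 3p arm at 88.0, and its mature strand (chr17:41517194-41517215, minus strand) lies within KRT15, which encodes a keratin of basal epithelial cells. MiR-191-5p read 4450 ± 191 and miR-22-3p 2434 ± 147.

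In some hairpins, also picked after their values were seen, the brighter arm was not the one usually studied. The arms were read by different probes, and probe binding was not separated from arm use. MiR-34c-5p read 118 ± 13.5, against 1229 ± 76.9 for miR-34c-3p, and miR-149-5p read 169.8 ± 43.6, against 1268 ± 85.3 for miR-149-3p. MiR-32-5p was below detection at 4.72, and miR-32-3p read 1007 ± 55.2. MiR-32-3p was 1 of the 5 detected microRNAs under 30% GC, of which miR-568 (2731 ± 238) was the brightest.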
